A study of Drosophila melanogaster with 8 samples.

Results

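The 8 genes described here are the inducible Hsp70 copies Hsp70Aa, Hsp70Ab, Hsp70Ba, Hsp70Bbb, Hsp70Bb and Hsp70Bc, the related chaperone gene Hsp68, and the heat shock long non-coding RNA gene lncRNA:Hsromega (Hsr-omega). They were chosen by name from the 17684 genes of the RefSeq table for the 6 main chromosome arms, and all 8 lie on 3R. P-p38 is p38, a MAP kinase that responds to stress, in its phosphorylated and active state; it was pulled down with its DNA from nuclei of S2 cells, a wild-type Drosophila line of embryonic origin with haemocyte traits, and the DNA was sequenced (ChIP-seq). H2O2 cells had 10 mM H2O2 for 30 min, control cells had the same volume of Schneider's medium, and both groups were kept at 25 ºC with no heat shock named in the labels. The data are 4 lists of called peaks, for control replicates 1 and 2 and H2O2 replicates 1 and 2, and the 4 input libraries were not analysed here. Nothing in the labels says that replicates were separate cultures, so p-values reflect the spread between these libraries, which may be technical, and a list made from many cells does not tell how many of them carried the signal.

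Hsp70 chaperones bind unfolded proteins and help them refold, and in flies the inducible copies are nearly silent until heat or another protein-damaging stress activates them through heat shock factor. In Drosophila cells an RNA polymerase held close to the start of the Hsp70 genes is a textbook case of promoter-proximal pausing, and heat shock releases it within minutes. The copies sit in 2 clusters on 3R, named 87A and 87C after the polytene bands, and the 87A pair is transcribed in opposite directions. Hsr-omega is among the most strongly induced heat shock puffs and makes no protein; its long nuclear transcripts gather RNA-binding proteins into nuclear bodies called omega speckles.

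Peaks lay within 2 kb of 7 of the 8 genes in every library, against 2.84% of all genes, and Hsp70Bc was the exception with a peak in control replicate 2 alone. The count was 7 in the control pair of libraries as well, where the share of all genes was 12.5%, and 7 in the H2O2 pair, where it was 8.39%. Hsp70Bb was counted in H2O2 replicate 1 through a peak on Hsp70Bbb. On the gene body alone, 6 genes had a peak in every library. The window held 11 peaks of the 4314 in control replicate 1, 12 of 2988 in control replicate 2, 16 of 6434 in H2O2 replicate 1 and 11 of 4019 in H2O2 replicate 2. Of these 50 peaks, 47 overlapped the body of a gene, and all 47 had their summit inside it. Because the background behind the authors' fold enrichment is not known, folds were ranked within each list, and a peak's fold percentile is the share of the list's peaks with an equal or lower fold. In every library the genes of 87A and Hsp68 were covered over 83.6% or more of the body, Hsr-omega over a short stretch at its lower-coordinate end, and the 87C copies unequally. For none of the 8 genes did the covered share in the H2O2 libraries lie wholly above or wholly below that in the control libraries.

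The Hsp70 copies at 87A, Hsp70Aa and Hsp70Ab, carried peaks over almost their whole bodies with and without H2O2. Hsp70Aa (3R 11954163 to 11956544, 2382 bp, coordinates on dm6) had 90.8% of its body under peaks in control replicate 1, 100% in control replicate 2, 85.4% in H2O2 replicate 1 and 100% in H2O2 replicate 2. Hsp70Ab (3R 11958535 to 11960909, 2375 bp) had 91.0% and 100% in the control libraries, given here and below in the order of replicates 1 and 2, and 92.5% and 100% in the H2O2 libraries. Each replicate 2 was at 100% for both copies, and the groups overlapped. The bases covered in all 4 libraries came to 2023 bp of Hsp70Aa (84.9%) and 2045 bp of Hsp70Ab (86.1%).

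Summits at 87A stood close to the ends of the copies that face each other. Counting its first base at the lower coordinate as 1, Hsp70Aa had a summit at position 2117 in control replicate 1, 2128 in control replicate 2, 2125 in H2O2 replicate 1 and 2118 in H2O2 replicate 2, which is 255 to 266 bp from its inner end. H2O2 replicate 1, where the coverage of Hsp70Aa broke into a peak of 1307 bp and one of 728 bp, had a further summit at position 762. Hsp70Ab had a summit at position 207 in control replicate 1, 207 in H2O2 replicate 1 and 216 in H2O2 replicate 2, measured from its own inner end. In control replicate 2 the summit of Hsp70Ab lay instead at position 2355, and control replicate 1 and H2O2 replicate 1 had small separate peaks with summits at 2374 and 2310, all at the outer end.

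The 1990 bp between the 87A copies carried no peak of its own. Peaks of the copies ran into it over 167 bp in control replicate 1, 234 bp in control replicate 2, 0 bp in H2O2 replicate 1 and 213 bp in H2O2 replicate 2. Outwards the signal reached further in both replicates 2: the peak over Hsp70Aa ran 1054 bp past its outer end in control replicate 2 and 371 bp in H2O2 replicate 2. It took in 34.8% and 5.67% of the neighbour CG31211, which had no coverage in either replicate 1. On the other side CG3281, which overlaps Hsp70Ab by 27 bp, had 8.79% and 39.1% of its length under peaks in the control libraries and 5.98% and 23.5% in the H2O2 libraries.

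**Figure D1:**
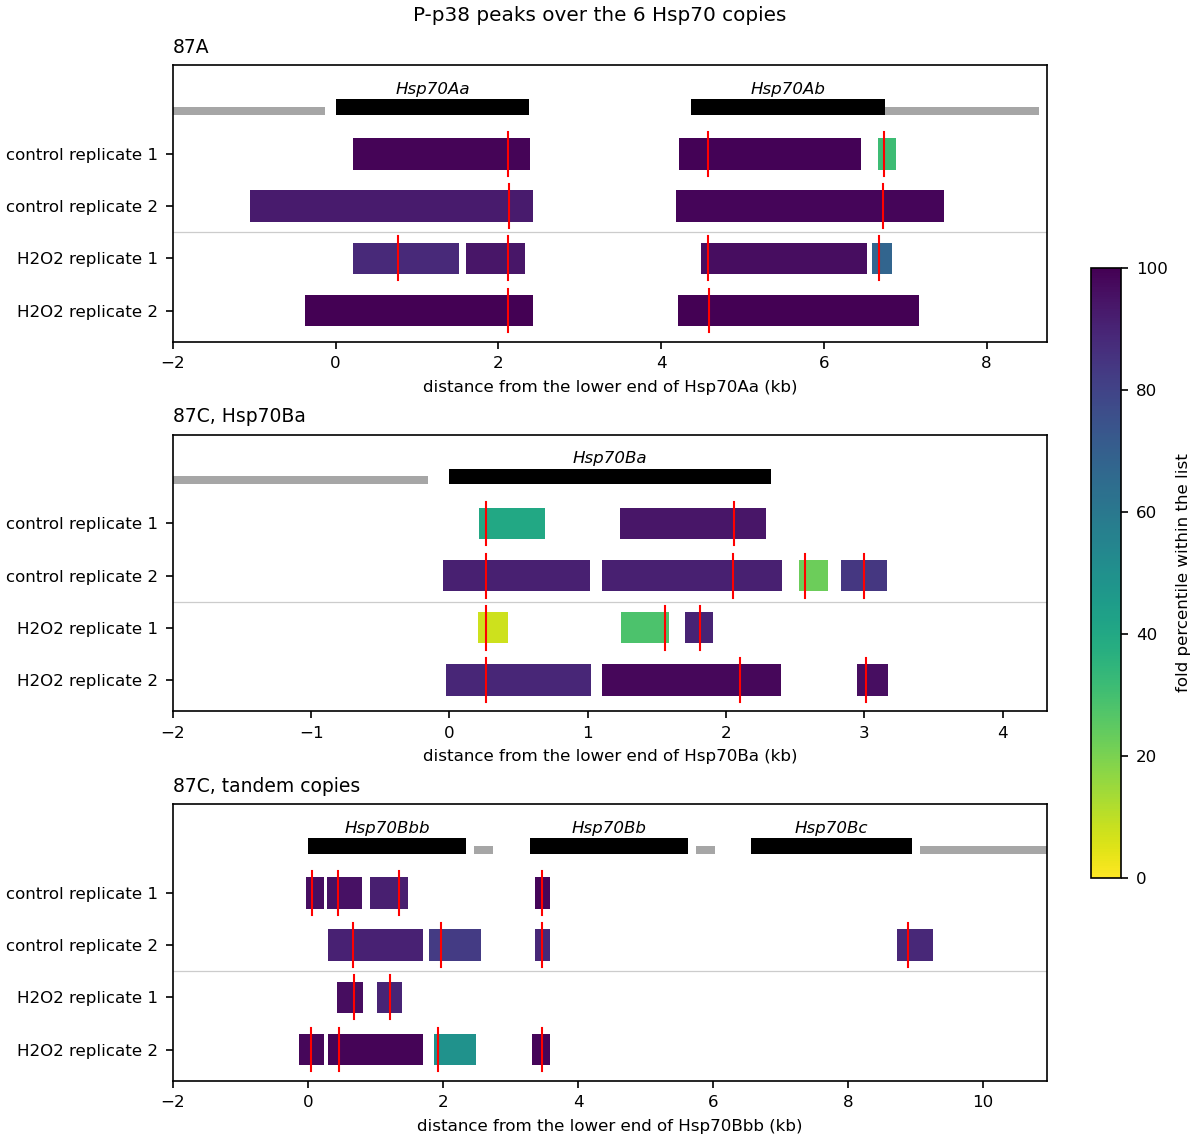
Peaks of the 4 libraries over the Hsp70 copies of 87A and 87C, against the distance in kb from the lower end of the first gene of each panel; black bars are the named genes, grey bars their neighbours, boxes the peaks coloured by fold percentile within their list, and red lines the summits. Hsp70Aa and Hsp70Ab are covered from end to end or nearly so in every row, Hsp70Ba and Hsp70Bbb in broken stretches, Hsp70Bb by 1 narrow peak in 3 libraries and Hsp70Bc at its upper end in control replicate 2 alone.

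Hsp70Ba, the 87C copy that stands apart, was covered nearly throughout in both replicates 2 and over less of its body in both replicates 1. Coverage was in 2 peaks in every library but H2O2 replicate 1, which had 3. Hsp70Ba (3R 12465453 to 12467776, 2324 bp) had 66.0% and 96.1% of its body under peaks in the control libraries against 33.2% and 96.8% in the H2O2 libraries. H2O2 replicate 1 was the lowest of the 4, while H2O2 replicate 2 was the highest, so the groups overlapped. All 4 libraries had a summit between positions 263 and 267 (267 and 263 in control, 265 and 265 in H2O2), a spread of a few bases. In both replicates 1 it belonged to a weak peak. That peak had fold percentile 40.1 and -log10 q 2.45 in control replicate 1, and 7.57 and 1.27 in H2O2 replicate 1. With a -log10 q of at least 5 this summit remained in both replicates 2 only. A further summit lay at 2060 in control replicate 1, 2049 in control replicate 2 and 2103 in H2O2 replicate 2, and H2O2 replicate 1 had summits at 1559 and 1814 there.

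Of the tandem copies Hsp70Bbb, Hsp70Bb and Hsp70Bc, Hsp70Bbb was covered most in each of the 4 libraries. Hsp70Bbb (3R 12502510 to 12504856) and Hsp70Bb (3R 12505793 to 12508139) are both 2347 bp long, and the starts of Hsp70Bbb, Hsp70Bb and Hsp70Bc (3R 12509076 to 12511461, 2386 bp) follow each other at steps of 3283 bp. For Hsp70Bbb the control libraries had 55.6% and 83.6% of the body under peaks, and the H2O2 libraries 32.6% and 90.0%. Its summits lay at positions 59, 450 and 1354 in control replicate 1 and at 670 and 1970 in control replicate 2. In H2O2 replicate 1 they lay at 681 and 1217, and in H2O2 replicate 2 at 50, 463 and 1921. No position was shared by all 4 libraries. For Hsp70Bb the control libraries had 9.25% and 9.37%, and the H2O2 libraries 0% and 11.7%. Hsp70Bc was covered over 9.51% in control replicate 2 and had no peak on its body in the other libraries. The groups overlapped for each of these copies.

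On Hsp70Bb the coverage was a narrow peak of 217 bp in control replicate 1, 220 bp in control replicate 2 and 275 bp in H2O2 replicate 2. Its summit fell on the same base, position 186, in all 3 libraries. The fold of this narrow peak stood at percentile 98.7, 88.8 and 98.8 of its list. Its surroundings differed: CR46154, annotated as a pseudogene between Hsp70Bbb and Hsp70Bb, was reached by the Hsp70Bbb peaks over 33.2% in control replicate 2 and 6.57% in H2O2 replicate 2, whereas CR46155, between Hsp70Bb and Hsp70Bc, had no coverage in any library. The 34.7 kb between Hsp70Ba and Hsp70Bbb held peaks over 2.78% of its length in control replicate 2 and no more than 1.24% in the others.

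The Hsp70 copies are near-identical in sequence, and a read from one copy may be placed on another or discarded, so the uneven coverage of the copies is uncertain. The sources used here do not say how multiply mapping reads were handled, and the part of that step in the gaps over Hsp70Bb and Hsp70Bc was not tested. Neither the genome sequence nor promoter and protein sequences of these genes were used here, so the copies were not aligned.

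Hsp68, an inducible Hsp70-family chaperone gene outside both clusters, was covered by an unbroken peak in each library. Hsp68 (3R 24055080 to 24057310, 2231 bp) had 83.6% and 100% of its body under peaks in the control libraries and 85.6% and 98.0% in the H2O2 libraries, so both group means were 91.8%. Summits lay toward its upper end, at positions 2007 and 1668 in control and 1997 and 1865 in H2O2. In control replicate 2 the peak ran 511 bp past the lower end and took in 74.6% of CG6000 and of lncRNA:CR44097, which share 1 interval and had no coverage in the other 3 libraries. SMC1, 976 bp beyond the upper end of Hsp68, was not covered in any library.

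Hsp68 was also the gene whose rank differed most between libraries. The fold of its peak was at percentile 99.6 of the lists of both control replicates, 99.2 of H2O2 replicate 2 and 60.4 of H2O2 replicate 1. In H2O2 replicate 1 the peak was still 1909 bp wide, and its -log10 q of 5.71 stood at percentile 92.8 of that list, so the fold ranked it lower than the q-value did. Both H2O2 values were thus below both control libraries, which was also the case for 21.1% of the 503 genes with a peak within 2 kb in every library. The exact two-sided permutation test gave p = 0.333, the smallest that 2 against 2 libraries allow, and 1 after adjustment over the 7 genes tested. Without H2O2 replicate 1 the difference of -19.8 percentile points shrank to -0.415. It was -51.5 at a -log10 q of at least 5, -42.8 with lists cut to equal length and -3.48 when peaks were ranked by q-value.

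**Figure D2:**
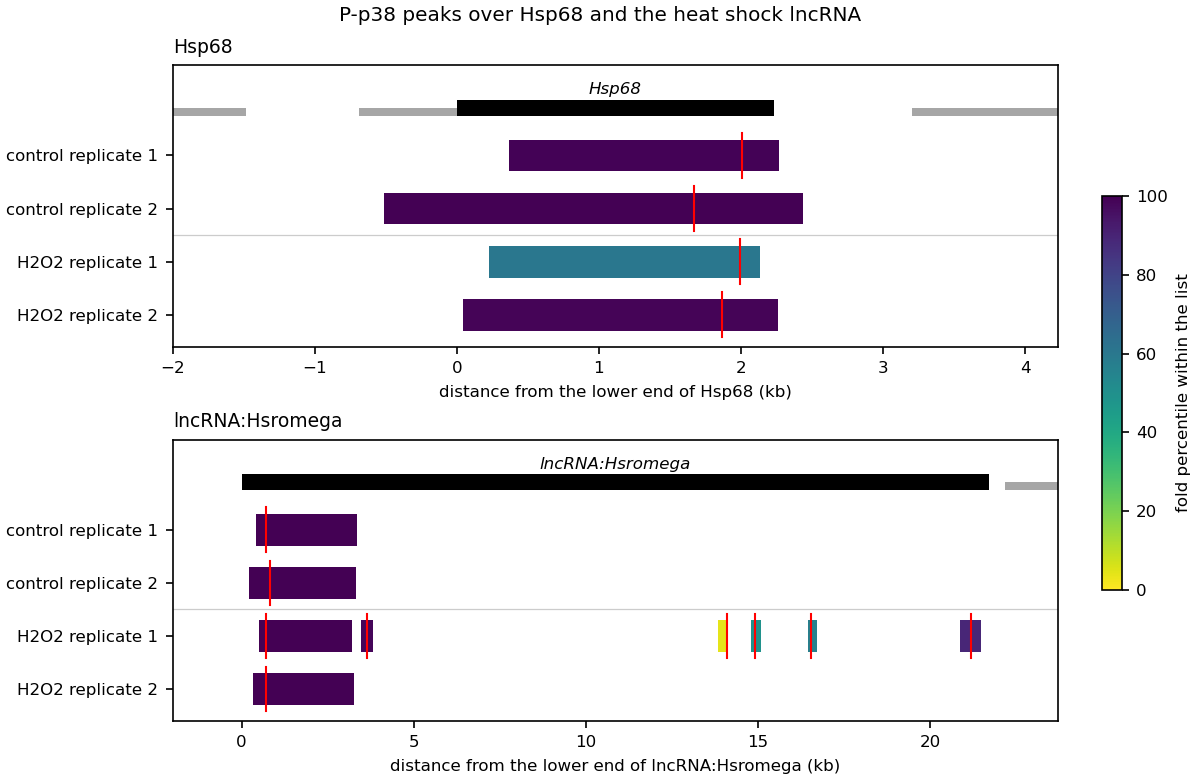
Peaks over Hsp68 and lncRNA:Hsromega in the 4 libraries, against the distance in kb from the lower end of the gene; black bars are the genes, grey bars their neighbours, boxes the peaks coloured by fold percentile, and red lines the summits. Hsp68 is covered by 1 peak per library, and Hsr-omega by a peak in its first 3.5 kb in every library, with 5 further peaks in H2O2 replicate 1 alone.

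Hsr-omega had the most consistently high peak of the 8 genes, and it occupied the same stretch in every library. The gene spans 21710 bp (3R 21296127 to 21317836), and its main peak ran over positions 412 to 3342 in control replicate 1, 226 to 3323 in control replicate 2, 502 to 3206 in H2O2 replicate 1 and 330 to 3275 in H2O2 replicate 2. The stretch of 2705 bp that all 4 libraries shared makes up 12.5% of the gene. Summits lay at positions 710 and 827 in control and 698 and 713 in H2O2, so 3 of the 4 were within 15 bp of each other and control replicate 2 stood off.

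Among all peaks on the arms that of Hsr-omega ranked 5th and 9th by fold in the control lists and 5th and 4th in the H2O2 lists. The authors' fold enrichment there was 4.89 and 5.32 in control and 2.96 and 7.05 in H2O2, and the highest fold of any peak in these lists was 6.22 and 7.58 in control and 3.65 and 8.22 in H2O2. By the lowest of its 4 percentiles, 99.7, Hsr-omega stood 1st of the 503 genes with a peak within 2 kb in every library. Both H2O2 percentiles (99.94 and 99.93) were above both control percentiles (99.91 and 99.73), a difference of 0.11 percentile points with an exact two-sided permutation p of 0.333, or 1 after adjustment over the 7 genes. Among the 503 genes, 21.7% were likewise higher in both H2O2 libraries.

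Beyond its first 3500 bp, a limit set after the peaks were seen, Hsr-omega had no coverage in either control library or in H2O2 replicate 2. H2O2 replicate 1 had 5 further peaks there, the first of them across the limit, and covered 9.85% of the remaining 18210 bp. Summits of these were at positions 3639, 14110, 14930, 16540 and 21204, with fold percentiles of 98.4, 3.93, 48.9, 56.5 and 89.2. As a share of the whole gene, coverage was 13.5% and 14.3% in control and 20.8% and 13.6% in H2O2. None of these peaks reached mir-4951, a microRNA gene inside Hsr-omega, in any library.

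**Figure D3:**
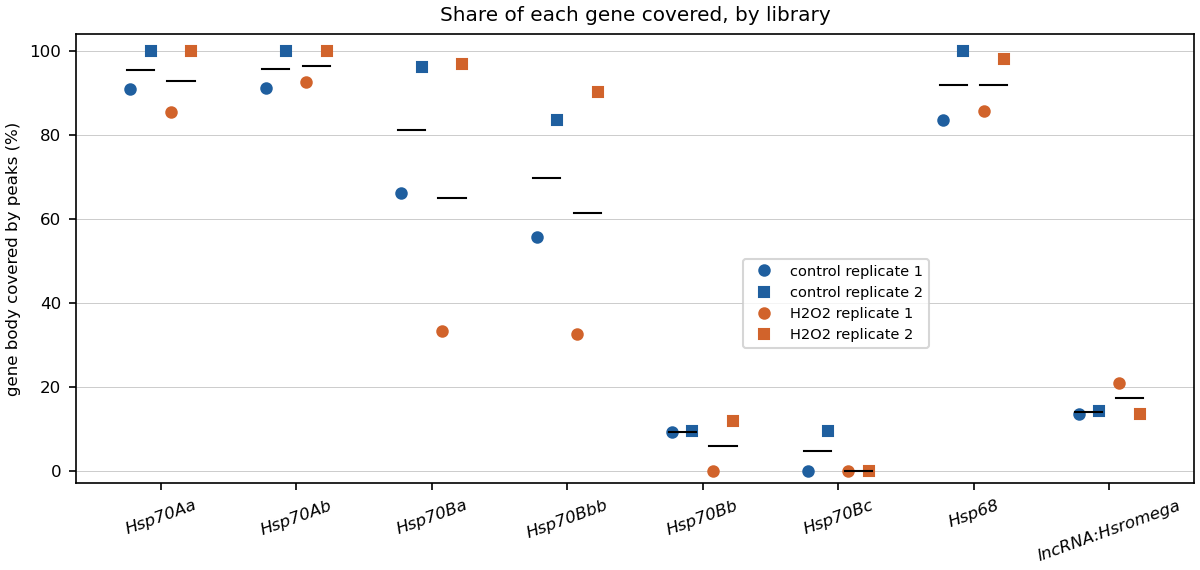
Share of each gene body covered by peaks (%), for the 8 genes; blue marks control and orange H2O2, circles replicate 1 and squares replicate 2, and black lines the mean of each group of 2. At Hsp70Ba the control points lie at 66.0% and 96.1% and the H2O2 points at 33.2% and 96.8%, so replicates differ by more than the group means, 81.1% and 65.0%.

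For each of the 8 genes the treatments differed in mean covered share by less than the larger SD of the groups. The widest gap was at Hsp70Ba, where the control mean was 81.1% ± 21.2 (SD, n = 2) and the H2O2 mean 65.0% ± 45.0 (SD, n = 2), with an exact permutation p of 1. At Hsp70Bbb the means were 69.6% ± 19.8 and 61.3% ± 40.6 (n = 2 each, exact permutation p = 1), and at Hsp70Aa 95.4% ± 6.53 and 92.7% ± 10.3 (n = 2 each, exact permutation p = 1). Hsr-omega had 13.9% ± 0.544 in control and 17.2% ± 5.13 in H2O2 (n = 2 each, exact permutation p = 0.667). Every one of the 8 tests was at 1 after Benjamini-Hochberg adjustment. Over all genes, 4.78% had a lower and 3.10% a higher covered share in both H2O2 libraries than in both control libraries.

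Replicate 2 covered more of these genes than replicate 1 in both groups. Within control this held for 8 of the 8 genes, and for 1355 of all 17684 genes. Within H2O2 it held for 6, Hsr-omega and Hsp70Bc being the others, and for 1152 of all genes. So 6 genes had more coverage in replicate 2 of both groups, against 1.17% of all genes. Only 4268 of all genes were covered in any library, and the others could not differ, which keeps these shares of all genes low. Both replicates 2 had the shorter list of their group. The peaks on these genes were longer there: over Hsp70Ba the longest peak was 1059 bp in control replicate 1 and 1299 bp in control replicate 2, and 350 bp in H2O2 replicate 1 and 1300 bp in H2O2 replicate 2. The depth of the libraries is unknown, and its part in this was not tested.

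Coverage over at least 50% of the body in both control libraries was found for Hsp70Aa, Hsp70Ab, Hsp70Ba, Hsp70Bbb and Hsp68, 5 of the 8 genes, against 1.61% of all genes and 1.49% of genes over 1 and up to 5 kb long. In both H2O2 libraries it was found for Hsp70Aa, Hsp70Ab and Hsp68, 3 of the 8 genes, against 0.3% of all genes and 0.327% of genes over 1 and up to 5 kb. The same 3 genes met it in every library, against 0.192% of all genes and 0.257% of genes over 1 and up to 5 kb. Hsp70Ba and Hsp70Bbb fell out of the H2O2 count through H2O2 replicate 1 alone, and without that library the count was 5. Hsr-omega did not reach 50% in any library; among genes over 5 and up to 30 kb, 0.856% did in both control libraries.

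Ranked by fold within each list, 6 of the 8 genes had a peak at or above percentile 90 within 2 kb in every library, against 0.452% of all genes. These were the 5 Hsp70 copies other than Hsp70Bc, and Hsr-omega. Hsp70Bb met this only through peaks on Hsp70Bbb in its window. On its own body it stood at 88.8 in control replicate 2 and had no peak in H2O2 replicate 1. Within 2 kb, Hsp70Aa stood at 99.4 and 98.8 in control and 94.4 and 99.8 in H2O2, but its window reaches the peak over Hsp70Ab, and on its own body it stood at 98.9 and 92.8 in control and 94.4 and 99.6 in H2O2. Hsp70Ab, by its own peak, stood at 99.4 and 98.8 in control and 96.7 and 99.8 in H2O2. The groups overlapped at both copies.

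The 87C copies mostly stood lower in the lists than those of 87A. Hsp70Ba was at percentile 94.4 and 91.3 in control and 90.5 and 98.2 in H2O2. Hsp70Bbb was at 98.7 and 90.7 in control and 96.8 and 99.0 in H2O2, where the control replicate 1 value belongs to the narrow peak on Hsp70Bb; on its own body that library gave 96.5. Hsp70Bb was at 90.2 in H2O2 replicate 1 only because its window takes in a peak on Hsp70Bbb. In each library the better of the 87A copies ranked above Hsp70Ba, though in H2O2 replicate 1 Hsp70Bbb (96.8) and Hsp70Ab (96.7) were nearly level. Copies share sequence and are not replicates of each other, so the loci were not tested against each other.

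**Figure D4:**
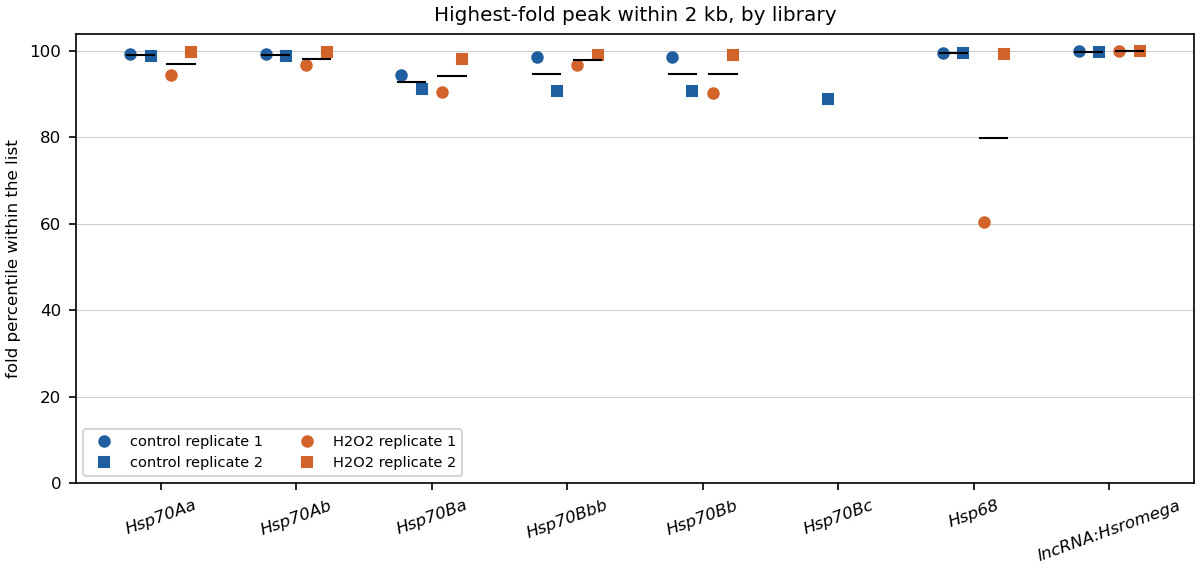
Percentile of the fold of the highest-fold peak within 2 kb of each gene among all peaks of that library, with colours and symbols as for the covered share and black lines at the group means; no point is drawn where no peak lay in the window. Points lie above 88 except Hsp68 in H2O2 replicate 1 at 60.4, and Hsp70Bc has a point for control replicate 2 only.

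Distances between the summits of different libraries were measured as well. Pairs of overlapping peaks from different libraries numbered 57 on the 8 genes, and in 20 of them (35.1%) the nearest summits were within 10 bp, with a median distance of 45 bp. Over all peaks 573 of 5686 such pairs (10.1%) were that close, with a median of 122.5 bp. The pairs on the 8 genes share peaks and libraries, so no test was made. On the chaperone genes 25 of the 38 summits lay within 300 bp of an end of the gene. These genes are only 2231 to 2386 bp long, and many of the summits are the same position found again in another library. No such share was taken over other genes, so the count is not read as a preference for the ends.

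A list of 25 other chaperone and co-chaperone genes held heat-inducible and constitutive ones. Of these, 11 had a peak within 2 kb in every library, 44.0% against the 2.84% of all genes. The control pair of libraries had 14, against 12.5% of all genes, and the H2O2 pair 12, against 8.39%. Hsc70-4, a constitutive Hsp70-family gene, had the highest lowest percentile (99.6) and was covered over 100% in all 4 libraries, and Hsp83, the fly Hsp90 gene, followed at 98.4 with 94.4% to 99.4% of its body covered. CG4456, listed under its older name Hsp67Bb, and Hsp22, a small heat shock gene, overlap and stood at the same percentile, 96.8, while neither had any coverage in H2O2 replicate 1. In that library their percentile was that of a peak over the nearby Hsp26, which was covered over 84.9% and stood at the same percentile. Hsp67Ba stood there too, with 0% of its own body covered in every library. Hsp23 and Hsp27 had equal percentiles in all 4 libraries. CG4456, Hsp22, Hsp26, Hsp67Ba, Hsp23 and Hsp27 lie close together on 3L and in part share peaks, so the 11 genes are not separate hits. Coverage over at least 50% in every library was found for 5 of these 25 genes, against 0.192% of all genes. The median covered share of the list was 0% and 34.0% in the control libraries and 0% and 12.5% in the H2O2 libraries. For the 8 genes the medians were 60.8% and 89.8% in the control libraries and 32.9% and 93.4% in the H2O2 libraries. The median over all genes was 0% in each library.

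Genes of the factors that act at heat shock loci were counted in the same way. A list of 16 genes for heat shock gene regulators and pausing factors included those of heat shock factor and GAGA factor. Of these 16, 0 had a peak within 2 kb in every library (2.84% of all genes). The count was 4 in the control pair (12.5% of all genes) and 1 in the H2O2 pair (8.39% of all genes). These counts are not read as apart from the background. Peaks near Hsf, which encodes heat shock factor, were found in 1 control and 1 H2O2 library, and near Trl, which encodes GAGA factor, in 2 control libraries and 1 H2O2 library. Of 7 genes for proteins that bind Hsr-omega RNA, sqd, an hnRNP gene, was the 1 with a peak in every library (2.84% of all genes). Its lowest percentile was 9.98. The control pair of libraries had 2 of the 7 (12.5% of all genes) and the H2O2 pair 1 (8.39% of all genes). With 7 genes these counts are not read as apart from the background. The coverage of sqd was 78.7% and 43.4% in control and 2.69% and 2.86% in H2O2. A lower covered share in both H2O2 libraries was found for 2 of these 7 genes, against 4.78% of all genes. The difference at sqd was not tested. Hrb98DE, another hnRNP gene, had peaks in both control libraries and 1 H2O2 library.

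**Figure D5:**
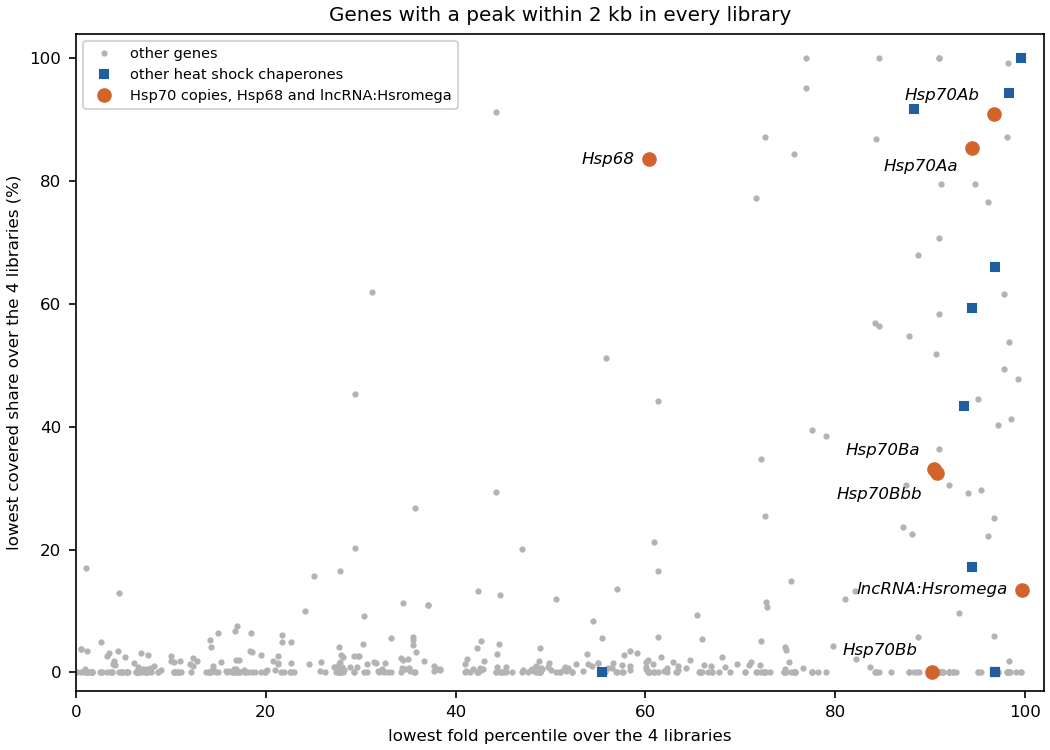
Lowest fold percentile against lowest covered share (%) over the 4 libraries for the 503 genes with a peak within 2 kb in every library; orange circles are the Hsp70 copies, Hsp68 and lncRNA:Hsromega, blue squares other heat shock chaperone genes and grey points other genes. Hsp70Ab (96.7, 91.0%) and Hsp70Aa (94.4, 85.4%) lie at the upper right, Hsp68 (60.4, 83.6%) to the left of them, and Hsr-omega (99.7, 13.5%) at the lower right.

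Patterns over the 4 libraries were compared with those of 487 genes that had a peak within 2 kb in every library and lay over 10 kb from the 8 genes, by the mean absolute difference over 4 fold percentiles and 4 covered shares. The genes most like 87A were Hsp83 (2.41 points), DnaJ-1, a co-chaperone of Hsp70 (2.50), and alphaTub84B, a tubulin gene (2.88). Most like the mean of 87C were GstE8, a glutathione transferase gene (6.38), Hsp22 (6.68) and CG4456 (6.84). That mean joins copies covered widely with copies barely covered, so it is not the profile of any copy. Its fold percentile takes in Hsp70Bc in control replicate 2 alone. In all libraries but H2O2 replicate 1 it also counts a shared peak for both Hsp70Bbb and Hsp70Bb. Hsp68 was nearest to GstE6 (4.16), lncRNA:CR43651 (6.25) and mir-14 (6.86), and Hsr-omega to gry (2.52), Amt (5.66) and ImpL2 (5.66). The likeness rests on 4 libraries, and neighbouring genes can share a peak, as GstE6 with GstE8 and lncRNA:CR43651 with mir-14 did by their equal percentiles. In every library gry likewise stood at the percentile of Hsp83, Amt at that of Hsc70-4 and CG4456 at that of Hsp22. The fold percentiles that liken gry and Amt to Hsr-omega are thus those of peaks shared with neighbouring chaperone genes.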

How the data were processed

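P-p38 ChIP-seq peak lists of 4 libraries were used. The submitters' processing notes name Picard, MACS2 and genome build dm6. Their versions and options, the background library and the handling of multiply mapping reads are not stated there. The authors deposited a fold enrichment per peak, a ratio to the background of the peak caller that was used here only to rank peaks within a list. They also deposited a p-value and a q-value, both as -log10. The deposited score equals 10 times the -log10 p-value cut to a whole number, except for 1 peak of H2O2 replicate 1. Depth is unknown, so no counting interval is given.

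Python 3.11.15 with pandas 2.3.3 was used. Gene positions came from the RefSeq table of Release 6, which has no strand, so positions count from the lower coordinate and a planned comparison of the gene's first and second parts by strand was not made. The authors' peaks on the arms were intersected with genes, with 1 bp of overlap counting as a hit, and coverage was tested on simulated peaks. Groups were compared by exact two-sided permutation of 2 against 2 libraries, adjusted by Benjamini-Hochberg. All genes of the table gave the background shares. Peak lists hold no expression, so the cell line was not checked against marker genes.

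Members, lists and tests were chosen with earlier results of these data known. Named genes were the 8 members, neighbours within 2 kb, up to 4 genes per list by lowest percentile and the 3 most alike genes per locus. Hsf, Trl, Hrb98DE, Hsp26, Hsp67Ba, Hsp23 and Hsp27, and the 87C spacer, were named after their values were seen. Of the listed names, 1 (HnrnpK) was not matched. Replicate numbers are not said to pair libraries, and the main comparisons used no block. Alternatives were a -log10 q of at least 5, lists of equal length (2988 peaks), other windows and measures, a replicate block and each library left out.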

Additional observations from a re-analysis of the deposited data

How the results depend on the processing

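The count of genes with a peak within 2 kb in every library was 7, and it was 6 with a -log10 q of at least 5, with the body alone, with a window of 500 bp or with a summit required in the window. Coverage of 25% in place of 50% gave 5 genes in every library and 5 in both H2O2 libraries, and 80% gave 3 in both control libraries. Leaving out each library in turn gave 3 to 5 genes covered over at least 50% in every library and 3 to 5 in both H2O2 libraries; the 5 came without H2O2 replicate 1.

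With 2 libraries a group no difference between treatments could pass a test, and its sign turned in 13 of 63 differences recomputed under alternatives that keep every library and in 16 of 60 recomputed with a library left out; the cause was not tested. A further 18 and 25 of these kept their sign but moved by over 1.5 times, among them the fold percentile of Hsp68, at -51.5 with a -log10 q of at least 5, -42.8 with lists of equal length and -3.48 by q-value. All that follow are H2O2 minus control, in percentile or percentage points. At a -log10 q of at least 5 the covered share of Hsp70Ab was -0.779, and the fold percentile was -20.3 for Hsp70Ba, -2.06 for Hsp70Bbb and -0.0744 for Hsr-omega. With the gene extended by 2 kb the covered share of Hsp70Ab was -4.05. The fold percentile of Hsp70Aa was 1.18 on the body alone and 1.18 within 500 bp, and by -log10 q it was 0.188 for Hsp70Aa and 0.600 for Hsp70Ab. With lists of equal length the fold percentile of Hsp70Ba was -3.11. The median over peaks in the window gave -15.3 for Hsp70Ba, 2.49 for Hsp70Bb and -13.4 for Hsr-omega.

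Leaving out each library in turn moved the covered share of Hsp70Aa from -9.95 to 4.62, Hsp70Ab from -3.77 to 5.24 and Hsp70Ba from -47.9 to 15.7. It moved Hsp70Bbb from -37.0 to 20.5, Hsp70Bb from -9.31 to 2.41, Hsp70Bc from -9.51 to 0 and Hsr-omega from -0.316 to 6.94. For Hsp68 the difference was 0 with every library and ran from -8.23 to 8.23. As 0 has no sign, these moves of Hsp68 are not among the sign turns counted above. The fold percentile ran from -4.66 to 0.655 for Hsp70Aa, -2.38 to 0.655 for Hsp70Ab, -2.40 to 5.32 for Hsp70Ba, -0.808 to 7.16 for Hsp70Bbb and -4.51 to 4.29 for Hsp70Bb. For Hsp68 it stayed negative, from -39.3 to -0.415, and for Hsr-omega positive, from 0.0243 to 0.199.

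With a replicate block, where labels are permuted within 2 pairs, the differences themselves stay the same (-16.1 for the covered share of Hsp70Ba, -19.8 for the fold percentile of Hsp68), the smallest p is 0.5, and no call changed. Deviations of same-numbered libraries correlated across genes, which are not independent replicates, with r = 0.0451 for covered share over the 4268 genes covered in any library. Over the 503 genes with a peak in every library r was 0.121 for covered share and 0.132 for fold percentile.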
